A study of Mus musculus with 36 samples.

Results

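The genes described here carry glucose into the cell and along glycolysis to lactate: the glucose transporters Slc2a1 and Slc2a3, hexokinase 1 (Hk1), the liver-type phosphofructokinase (Pfkl) and the regulatory enzyme Pfkfb3, the aldolases Aldoa and Aldoc, phosphoglycerate kinase 1 (Pgk1), pyruvate kinase M (Pkm) and lactate dehydrogenase A (Ldha). They were chosen by name, and a spot was taken where the platform annotation gave it exactly 1 of these symbols. All 10 were found, on 15 of 15388 spots and among 6971 named genes. Exposed BALB/c mice breathed air at 0.5 atm during 1, 3, 7, 14 or 21 days, and further groups went back to sea level after day 21 and were taken 1, 3, 7 or 14 days later (days 22, 24, 28 and 35). Each group had control mice matched for time. Each of the 9 days had 4 spotted 2-colour cDNA arrays, 36 in all, and every RNA was a pool from the whole lungs of 5 mice. No genetic change or drug is named in the labels.

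Glycolysis splits glucose into pyruvate and yields ATP without oxygen. Glucose enters through transporters of the Slc2a (GLUT) family, hexokinase traps it in the cell, phosphofructokinase commits it to the pathway, and aldolase, phosphoglycerate kinase and pyruvate kinase carry it on to pyruvate, which lactate dehydrogenase turns into lactate. Many of these genes are textbook targets of the hypoxia-inducible transcription factors, and glycolysis has been widely studied in the cells of the pulmonary artery wall in pulmonary hypertension.

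Every value below is a log2 ratio of exposed over control lung, so 1 means a doubling and 0 no difference. This direction is the likely one: the protocol lists the groups and dyes in matching order (hypoxic with Cy5, control with Cy3) but does not state the numerator. With the ratio the other way up, every sign below, and with it each higher and lower, would turn. The array SDs lay between 0.17 and 0.52 and the array medians between -0.016 and 0.050, and precision is limited by the 4 arrays of a day. Replicates 1 and 2 of a day resembled each other more than they resembled replicates 3 and 4: the median Pearson r across genes, which are not independent replicates, was 0.69 within these pairs and 0.29 across them. The lowest r of any pair of arrays was -0.32, between day 3 (replicate 2) and day 22 (replicate 3). Ratios hold no expression level, so the lung label could not be checked against marker levels.

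Over the 5 sampled days of hypoxia, 5 of the 10 genes were higher than in control lung and 1 was lower. Higher and lower here follow the likely direction of the ratio. By their means the higher genes were Pkm, Hk1, Pfkl, Aldoa and Ldha, and the lower gene was Pfkfb3. The test was limma on the 9 day means with Benjamini-Hochberg adjustment over all 12159 genes or unnamed spots tested and a threshold of 0.05. Over all of these, 42.4% passed in either direction, 24.7% higher and 17.7% lower. The median of the 10 genes was 0.15, against 0.03 over everything tested. In whole lung, a change in RNA per cell and a change in the share of the cells that hold it cannot be told apart.

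**Figure D1:**
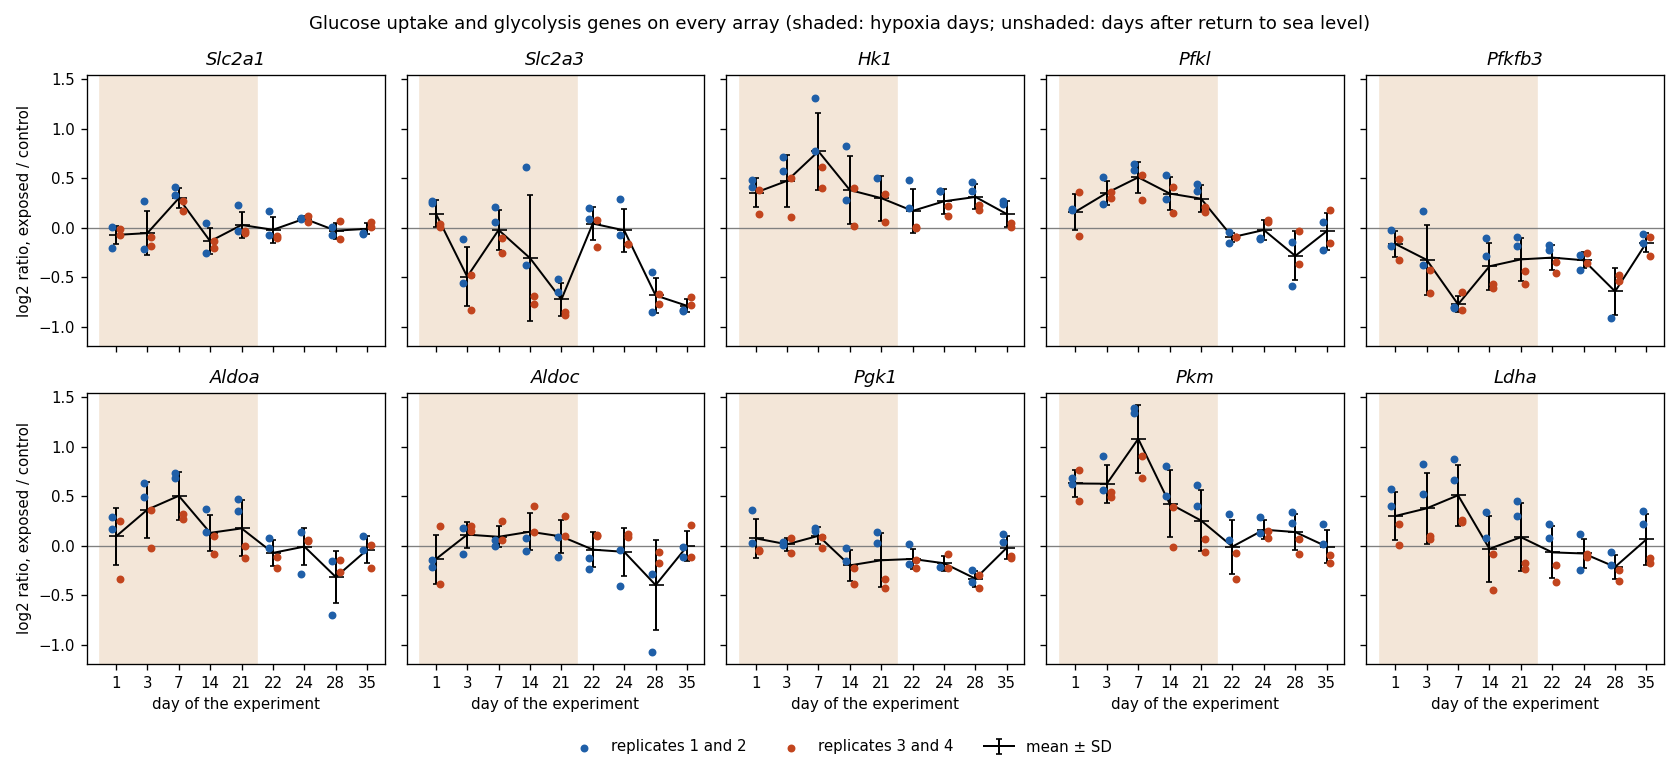
Log2 ratio of exposed over control lung (vertical axis) on each array at each of the 9 days (horizontal axis, not to scale) for the 10 glycolysis genes. Points are arrays, blue for replicates 1 and 2 and red for replicates 3 and 4, and lines join day means with the SD over the 4 arrays (3 for Hk1 at day 21, Pfkfb3 at day 28 and Pgk1 at day 24). Pkm stood highest at day 7 with a mean of 1.08 and Pfkfb3 lowest at the same day with -0.77.

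The pyruvate-producing step showed the largest ratio. Pkm, which encodes both the M1 and the M2 form of pyruvate kinase by alternative splicing, stood at 0.63, 0.62, 1.08, 0.42 and 0.25 at days 1, 3, 7, 14 and 21. Its mean was 0.60 ± 0.31 (SD over days, n = 5), a 1.52-fold ratio (limma adjusted p = 0.00050). At day 7 the 4 arrays read 1.34, 1.39, 0.90 and 0.68, all well above 0. The arrays of day 21 read 0.61, 0.40, -0.07 and 0.07, and there the pair of replicates 3 and 4 lay around 0. After the return to sea level Pkm averaged 0.07 ± 0.09 (SD over days, n = 4) and did not pass (limma adjusted p = 0.66). The ratios do not say which of the splice forms was measured.

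Hk1, the hexokinase that phosphorylates glucose on entry in most tissues, was above 0 at all 9 days. It stood at 0.35, 0.47, 0.77, 0.38 and 0.30 over the hypoxia days, a mean of 0.46 ± 0.19 (SD, n = 5; limma adjusted p = 0.00032). The arrays of day 7 read 0.77, 1.31, 0.61 and 0.40. Back at sea level its day means were 0.17, 0.27, 0.31 and 0.14, with a mean of 0.22 ± 0.08 (SD, n = 4) that did not pass (limma adjusted p = 0.070). In replicates 1 and 2 alone the recovery mean was 0.34 and passed (limma adjusted p = 0.032), and in replicates 3 and 4 alone it was 0.10 and did not (limma adjusted p = 0.29).

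The commitment step split into an enzyme with ratios above 0 and a regulator with ratios below 0. Pfkl, a subunit of phosphofructokinase, stood at 0.16, 0.35, 0.51, 0.35 and 0.29 over the hypoxia days, with a mean of 0.33 ± 0.12 (SD, n = 5; limma adjusted p = 0.00077). Its arrays read 0.24, 0.51, 0.30 and 0.36 at day 3, 0.58, 0.64, 0.53 and 0.28 at day 7 and 0.53, 0.29, 0.42 and 0.15 at day 14. Of its 20 arrays over hypoxia, replicate 4 of day 1 was the exception to positive values, at -0.08. Pfkfb3 makes fructose 2,6-bisphosphate, the strongest activator of phosphofructokinase, and is itself known as a gene induced by hypoxia. Here it read -0.16, -0.32, -0.77, -0.39 and -0.32, a mean of -0.39 ± 0.23 (SD, n = 5; limma adjusted p = 0.0028). Pfkfb3 lay below 0 on the recovery days too, with a mean of -0.36, and the phases differed by -0.04. Its arrays at day 7 read -0.80, -0.81, -0.83 and -0.65, the tightest of its hypoxia days. In replicates 1 and 2 alone the Pfkfb3 mean was -0.27 and did not pass (limma adjusted p = 0.091).

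The aldolases split fructose 1,6-bisphosphate, Aldoa as the form of most tissues and Aldoc as the form of brain. Aldoa stood at 0.09, 0.36, 0.50, 0.13 and 0.17, a mean of 0.25 ± 0.17 (SD, n = 5; limma adjusted p = 0.0076). In replicates 3 and 4 alone that mean was 0.07 and did not pass (limma adjusted p = 0.34). The 4 arrays of Aldoa at day 7 read 0.69, 0.74, 0.32 and 0.27, and at day 1 replicate 4 read -0.34 beside 0.17, 0.29 and 0.25. Aldoc read -0.14, 0.11, 0.09, 0.14 and 0.09, with a mean of 0.06 ± 0.11 (SD, n = 5) that did not pass (limma adjusted p = 0.46). Pgk1, which makes the first ATP of the pathway, read 0.07, 0.01, 0.10, -0.20 and -0.15, with a mean of -0.03 ± 0.13 (SD, n = 5; limma adjusted p = 0.66), within a 95% interval of -0.15 to 0.09.

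Ldha, which regenerates NAD+ by making lactate, had the least stable of the raised means. It stood at 0.30, 0.38, 0.51, -0.03 and 0.08, with a mean of 0.25 ± 0.22 (SD, n = 5; limma adjusted p = 0.014). The arrays of day 7 read 0.66, 0.87, 0.24 and 0.26, and those of day 14 read 0.34, 0.07, -0.09 and -0.45. Replicates 1 and 2 alone gave 0.50 and passed (limma adjusted p = 0.00094). Replicates 3 and 4 alone gave -0.006 (limma adjusted p = 0.95). The call was also lost without replicate 1 (0.17, adjusted p = 0.092), without replicate 2 (0.15, adjusted p = 0.060), without day 3 (0.21, adjusted p = 0.057) and without day 7 (0.18, adjusted p = 0.064).

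The transporters at the entry of the pathway did not pass over hypoxia. Slc2a1 encodes GLUT1, the basal glucose transporter and a classical target of the hypoxia-inducible factors, and its hypoxia mean was 0.01 ± 0.17 (SD, n = 5; limma adjusted p = 0.87). Day 7 stood apart at 0.30, with arrays at 0.33, 0.42, 0.17 and 0.28, while days 1, 3, 14 and 21 read -0.07, -0.05, -0.14 and 0.03. Slc2a3 encodes GLUT3, a transporter of high affinity best known from neurons, and moved by day without a steady course. It read 0.14, -0.49, -0.02, -0.31 and -0.72 over hypoxia, a mean of -0.28 ± 0.35 (SD, n = 5; limma adjusted p = 0.12). At day 14 its arrays ran from -0.77 to 0.61, the widest spread of any day among the 10 genes. In replicates 3 and 4 alone its hypoxia mean was -0.48 and passed (limma adjusted p = 0.0071), and in replicates 1 and 2 alone it was -0.08 (limma adjusted p = 0.69).

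**Figure D2:**
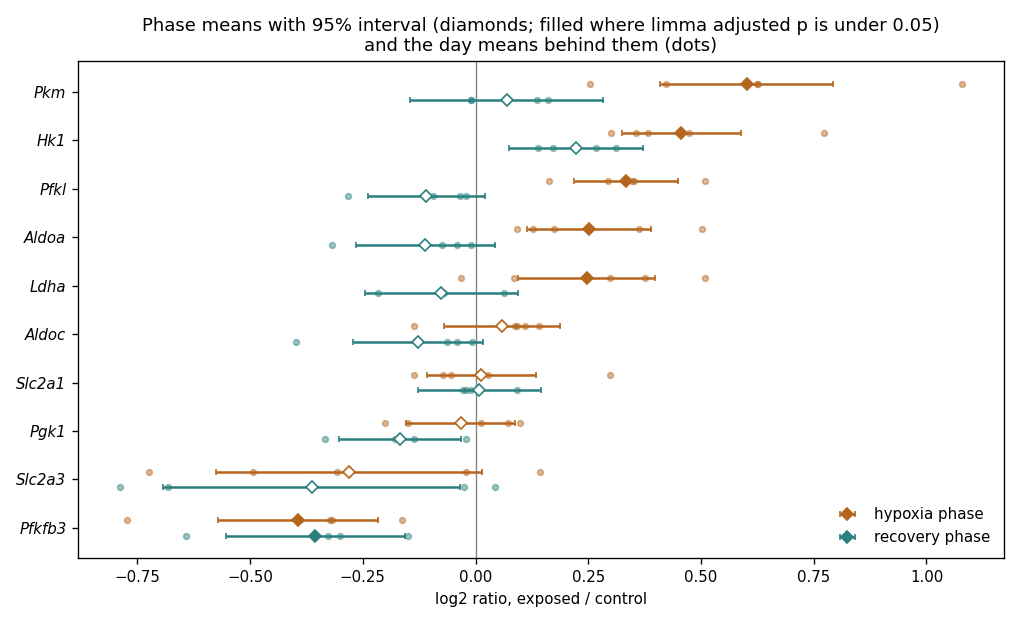
Mean log2 ratio of exposed over control lung (horizontal axis) of each gene over the 5 hypoxia days (brown) and the 4 recovery days (teal), as diamonds with 95% intervals, with the day means as dots. The hypoxia means run from -0.39 for Pfkfb3 to 0.60 for Pkm, and over recovery the 1 filled diamond is Pfkfb3 at -0.36.

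Promoter sequences are shown for Pkm and Ldha (higher over hypoxia), Pfkfb3 (lower) and Pgk1 (not passed). Pfkl is shown too, as its difference between hypoxia and recovery had the smallest p of the 10. The sequences come from RefSeq on GRCm38.p6. They run from 250 bases before to 50 bases after an annotated start, 300 bases in all. Capitals mark ACGTG and GCGTG on either strand, the core letters recognised by the hypoxia-inducible factors, so that CACGT and CACGC mark the same letters on the opposite strand. CACGTG holds ACGTG on both strands and was counted once as a place. The windows are chr9:59656977-59657276 for Pkm, chr7:46845554-46845853 for Ldha, chr2:11553880-11554179 for Pfkfb3, chrX:106186850-106187149 for Pgk1 and chr10:78009758-78010057 for Pfkl.
Pkm, second start, plus strand: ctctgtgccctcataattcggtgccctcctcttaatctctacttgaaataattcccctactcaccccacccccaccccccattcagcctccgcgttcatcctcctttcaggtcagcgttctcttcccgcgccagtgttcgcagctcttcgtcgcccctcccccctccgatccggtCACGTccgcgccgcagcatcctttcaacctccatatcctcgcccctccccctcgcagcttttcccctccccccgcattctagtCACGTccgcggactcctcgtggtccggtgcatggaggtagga
Ldha, first start, plus strand: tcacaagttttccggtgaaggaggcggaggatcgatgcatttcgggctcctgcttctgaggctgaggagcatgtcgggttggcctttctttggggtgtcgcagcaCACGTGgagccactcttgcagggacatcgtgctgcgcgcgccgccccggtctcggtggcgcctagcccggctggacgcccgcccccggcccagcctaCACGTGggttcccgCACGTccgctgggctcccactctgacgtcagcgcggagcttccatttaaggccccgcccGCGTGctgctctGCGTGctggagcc
Pfkfb3, second start, minus strand: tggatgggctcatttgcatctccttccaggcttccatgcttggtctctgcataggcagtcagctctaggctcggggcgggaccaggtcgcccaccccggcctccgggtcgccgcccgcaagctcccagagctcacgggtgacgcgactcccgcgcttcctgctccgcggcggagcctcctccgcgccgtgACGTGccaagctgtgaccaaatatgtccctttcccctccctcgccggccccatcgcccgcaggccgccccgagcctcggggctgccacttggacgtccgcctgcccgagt
Pgk1, plus strand: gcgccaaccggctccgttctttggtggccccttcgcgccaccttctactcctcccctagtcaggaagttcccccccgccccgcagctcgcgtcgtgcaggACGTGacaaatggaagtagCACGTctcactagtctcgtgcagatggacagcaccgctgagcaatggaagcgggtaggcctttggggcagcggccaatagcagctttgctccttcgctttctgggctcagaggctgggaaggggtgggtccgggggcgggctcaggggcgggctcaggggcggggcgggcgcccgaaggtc
Pfkl, minus strand: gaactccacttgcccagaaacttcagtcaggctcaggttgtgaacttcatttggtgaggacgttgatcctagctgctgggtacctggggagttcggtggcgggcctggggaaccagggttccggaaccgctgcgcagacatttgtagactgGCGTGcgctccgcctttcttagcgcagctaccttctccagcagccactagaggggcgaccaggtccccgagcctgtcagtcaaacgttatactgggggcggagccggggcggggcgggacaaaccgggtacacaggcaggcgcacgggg

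The Ldha window held ACGTG at 3 places, the Pkm and Pgk1 windows at 2 each, the Pfkfb3 window at 1 and the Pfkl window at 0. The windows shown for Pkm and Ldha were picked after the matches were seen: the first Pkm window and the second Ldha window held 0 places. Pfkfb3 had 1 place in each of its 2 windows. Symbols matched an entry for 9 of the 10 genes, with 16 windows, and Slc2a3 had no entry. ACGTG was present in 10 of the 16 windows (62.5%), against 19.6% of all 32851 windows of the same length. With GCGTG added, 13 of 16 windows held either motif, against 43.8% of all windows. Several windows belong to the same gene, and the first and second of the 3 Aldoa windows overlap. Both motifs hold CG, and the GC content of the 16 windows was 51.3% to 69.7%, against a median of 52.7% over all windows, so the shares are not set at equal base content. A match of these letters is a description of the sequence and not a binding site.

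Single days were compared on the 36 arrays with limma, so these p-values rest on how the arrays of a day vary, which can be technical since nothing says that they came from separate pools. Of the 90 gene and day values, 31 passed, 18 higher and 13 lower. The balance of directions differed between the replicate pairs. Replicates 1 and 2 alone gave 19 higher and 7 lower, and replicates 3 and 4 alone gave 9 higher and 16 lower. Over all features, the share that passed at a day ran from 1.06% (day 24) to 36.4% (day 7) in replicates 1 and 2. In replicates 3 and 4 it ran from 0.655% (day 24) to 44.3% (day 7). At day 1 Pkm (0.63) and Hk1 (0.35) were higher and none was lower, where 19.6% of all features passed (10.6% higher and 9.04% lower). At day 3, 5 were higher (Pkm, Hk1, Ldha, Aldoa and Pfkl) and 2 lower (Slc2a3 and Pfkfb3), against 23.3% of features (13.3% higher and 9.95% lower). Day 7 had 6 higher and 1 lower, as many calls in all as day 3, against 35.8% of features (20.4% higher and 15.5% lower), the highest share of the hypoxia days. Pkm, Hk1, Pfkl, Ldha, Aldoa and Slc2a1 had their highest day mean there and Pfkfb3 its lowest.

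By day 14 the calls were 3 higher (Pkm 0.42, Hk1 0.38 and Pfkl 0.35) and 2 lower (Pfkfb3 -0.39 and Pgk1 -0.20, limma adjusted p = 0.046 for Pgk1), against 27.7% of features (15.5% higher and 12.2% lower). In replicates 1 and 2 alone the 3 calls of day 14 were all higher (Pkm, Hk1 and Pfkl). Over all features 23% passed there (1331 higher and 1352 lower). In replicates 3 and 4 alone the 4 calls of day 14 were all lower (Slc2a3, Pfkfb3, Pgk1 and Ldha). There 38.9% of all features passed (2622 higher and 1962 lower). At day 21, Pfkl (0.29) was higher and Slc2a3 (-0.72) lower, against 4.52% of features (2.22% higher and 2.3% lower). The arrays of Slc2a3 at day 21 read -0.52, -0.65, -0.88 and -0.85. Replicates 1 and 2 alone gave 2 higher at day 21 (Pfkl and Pkm) and 0 lower, against 6.88% of features (406 higher and 387 lower). Replicates 3 and 4 alone gave 0 higher and 3 lower (Slc2a3, Pfkfb3 and Pgk1), against 11.5% of features (766 higher and 610 lower). The Pfkl call of day 21 was lost when any 1 replicate number was left out and with the pairs as a random block. With the means of the replicate pairs as the unit, the 31 calls fell to 12, among them all those of day 7 but Ldha. Calls over all features fell too, at day 7 from 35.8% to 18.8%. That fit kept Slc2a3, Pfkl and Pfkfb3 as lower at day 28, where 15.8% of features passed. It left 0 calls at days 1, 21 and 35, where 4%, 0.418% and 0.872% of features passed.

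After the return to sea level, 1 of the 10 genes passed over the phase as a whole. Pfkfb3 read -0.30, -0.33, -0.64 and -0.15 on days 22, 24, 28 and 35, a mean of -0.36 ± 0.21 (SD, n = 4; limma adjusted p = 0.049). Over all features 4.77% passed, 1.65% higher and 3.12% lower. This call sits close to the threshold: it was lost when array medians were set to 0, in replicates 1 and 2 alone (adjusted p = 0.079), when replicate 3 or 4 was left out, and when any 1 of days 1, 3, 14, 21, 22, 24 and 28 was left out. The median of the 10 genes over recovery was -0.11, against 0.02 over all features. The means of the genes other than Pfkfb3 lay between -0.36 for Slc2a3 (limma adjusted p = 0.14) and 0.22 for Hk1.

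The genes that were higher over hypoxia lay near or below 0 on most recovery days, apart from Hk1. On days 22, 24, 28 and 35 Pkm read -0.01, 0.16, 0.14 and -0.01 and Ldha read -0.07, -0.08, -0.22 and 0.06. Pfkl read -0.09, -0.02, -0.28 and -0.04 and Aldoa read -0.07, -0.01, -0.32 and -0.04, so that both were lowest at day 28. Day 28 was also the lowest recovery day of Aldoc, at -0.04, -0.06, -0.40 and -0.01, and of Pgk1, at -0.14, -0.18, -0.33 and -0.02. Slc2a3 read 0.04, -0.03, -0.68 and -0.79 and Slc2a1 read -0.02, 0.09, -0.03 and -0.01.

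Days 22 and 24 had no call among the 10 genes by limma, against 1.56% of features at day 22 (0.805% higher and 0.756% lower) and 2.87% at day 24 (0.754% higher and 2.12% lower). At an unadjusted p under 0.05 there was 1 gene at day 22 (Pfkfb3) and 3 at day 24 (Hk1, Pfkfb3 and Pgk1), against 9.8% and 15.8% of features. Pfkfb3 passed as lower at day 22 with array spreads made equal and in replicates 3 and 4 alone, and at day 24 with array medians set to 0. With equal spreads day 24 had 1 higher (Hk1) and 2 lower (Pfkfb3 and Pgk1), against 19.8% of features (1192 higher and 1246 lower). Day 28, after 7 days at sea level, had 1 gene higher (Hk1, 0.31) and 6 lower, against 32.1% of features (18.6% higher and 13.5% lower). Those lower were Slc2a3 (-0.68), Pfkfb3 (-0.64), Aldoc (-0.40), Pgk1 (-0.33), Aldoa (-0.32) and Pfkl (-0.28). With every spot of a gene required to pass, 4 were lower. Aldoa passed at spot 13581 (-0.49, limma adjusted p = 0.0050) and not at spot 8746 (-0.15, limma adjusted p = 0.27). Pfkl passed at spot 11641 (-0.26, limma adjusted p = 0.014) and not at spot 9265 (-0.31, limma adjusted p = 0.057).

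Replicate 1 of day 28 had the widest spread of all arrays, with an SD of 0.52, and read -1.07 for Aldoc, -0.70 for Aldoa and -0.59 for Pfkl. Without it, a choice made after seeing the data, Slc2a3 (-0.63, limma adjusted p = 0.0046) and Pgk1 (-0.33, limma adjusted p = 0.0093) were still lower. Hk1 (0.26), Aldoa (-0.19), Pfkl (-0.18) and Aldoc (-0.18) then no longer passed, and Pfkfb3, left with 2 arrays, was not tested. Day 35 had 1 call, Slc2a3 at -0.79 with arrays at -0.83, -0.84, -0.78 and -0.70, against 3.16% of features (1.81% higher and 1.36% lower). It held in each replicate pair alone and was lost with pair means as the unit. The other 9 genes lay between -0.15 and 0.14 at that day.

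The first day at sea level was then compared with the last day of hypoxia, each against its own control. Slc2a3 was 0.77 higher at day 22 than at day 21, and it was the 1 gene of the 10 that passed (limma adjusted p = 0.049, against 0.609% of features, 0.37% higher and 0.239% lower). Its arrays read 0.20, 0.09, -0.19 and 0.07 at day 22, against -0.52, -0.65, -0.88 and -0.85 at day 21, with no overlap. The call was lost with replicates 1 and 2 alone (0.73, adjusted p = 0.44), with pair means as the unit, with the pairs as a random block (adjusted p = 0.53) and without replicate 1 (adjusted p = 0.46), replicate 3 (adjusted p = 0.33) or replicate 4 (adjusted p = 0.40). Pfkl was the other gene whose arrays did not overlap. Its values were -0.04, -0.15, -0.09 and -0.09 at day 22 and 0.37, 0.44, 0.21 and 0.16 at day 21, a difference of -0.39 that did not pass (limma adjusted p = 0.17).

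Between the phases, no gene of the 10 passed, and 4 of 12159 features did (0.0329%). At an unadjusted p under 0.05, 5 of the 10 and 15.2% of features stood out: Pfkl, Pkm, Aldoa, Ldha and Hk1, all higher in hypoxia than in recovery. Pfkl averaged 0.33 over hypoxia and -0.11 over recovery, a difference of 0.44 with a 95% interval of 0.27 to 0.61 (limma adjusted p = 0.095). Pkm averaged 0.60 and 0.07, a difference of 0.53 (limma adjusted p = 0.12). Aldoa averaged 0.25 and -0.11, a difference of 0.36 (limma adjusted p = 0.13).

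For Pfkl, Pkm and Aldoa the hypoxia day means lay above every recovery day mean. Ldha averaged 0.25 over hypoxia and -0.08 over recovery, a difference of 0.32 (limma adjusted p = 0.19). The difference of Hk1 was 0.23 (limma adjusted p = 0.26), and that of Pfkfb3 was -0.04, with an interval of -0.30 to 0.23. The differences were above 0 for 9 of the 10 genes, with a median of 0.21, against 54.5% above 0 and a median of 0.01 over all features. Pfkl passed with arrays scaled to a common spread (0.37, adjusted p = 0.049), in replicates 1 and 2 alone (0.56, adjusted p = 0.039) and, with Pkm, without day 21 (0.45 for Pfkl and 0.62 for Pkm, adjusted p = 0.043 for each).

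**Figure D3:**
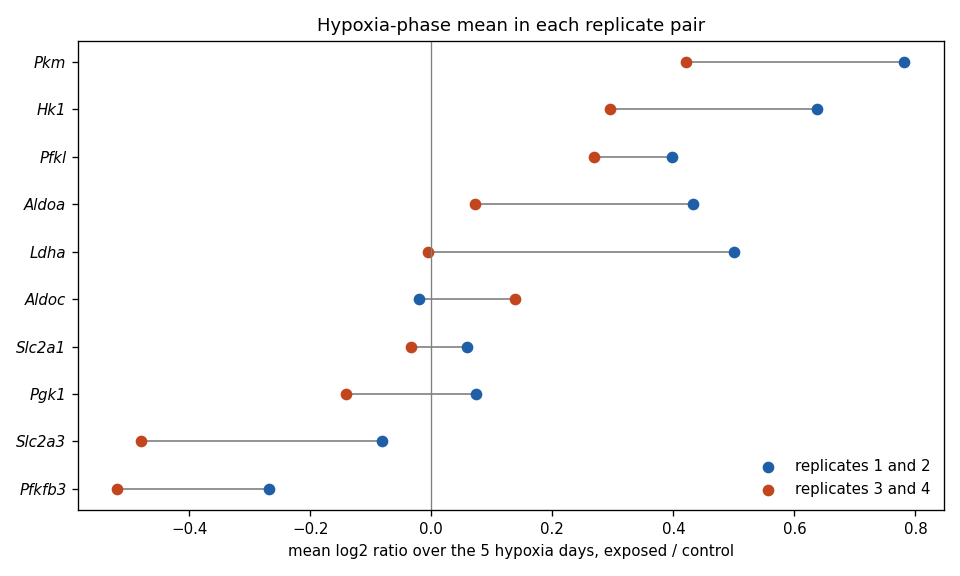
Hypoxia-phase mean log2 ratio of exposed over control lung (horizontal axis) of each gene in replicates 1 and 2 (blue) and in replicates 3 and 4 (red), joined by a line. Ldha reads 0.50 in replicates 1 and 2 and -0.006 in replicates 3 and 4, and the other 4 raised genes are above 0 in both pairs.

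The replicate pairs differed for these genes in the same direction on most days. Replicates 1 and 2 stood above replicates 3 and 4 at all 9 days for Pkm, Hk1 and Ldha, at 8 of 9 for Slc2a3 and Pgk1, and at 0 of 9 for Aldoc. Over hypoxia Pkm averaged 0.78 in replicates 1 and 2 and 0.42 in replicates 3 and 4, and Hk1 averaged 0.64 and 0.30. Pfkl was closest between the pairs among the raised genes, with 0.40 and 0.27, but its 2 spots differed. Spot 9265 read 0.60 in replicates 1 and 2 and 0.23 in replicates 3 and 4, and spot 11641 read 0.20 and 0.30. Pkm, Hk1 and Pfkl passed over the hypoxia phase in each pair alone. The mean gap between the pairs at a day, without its sign, ran from 0.09 for Slc2a1 to 0.40 for Ldha, and the labels do not say what sets the pairs apart.

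**Figure D4:**
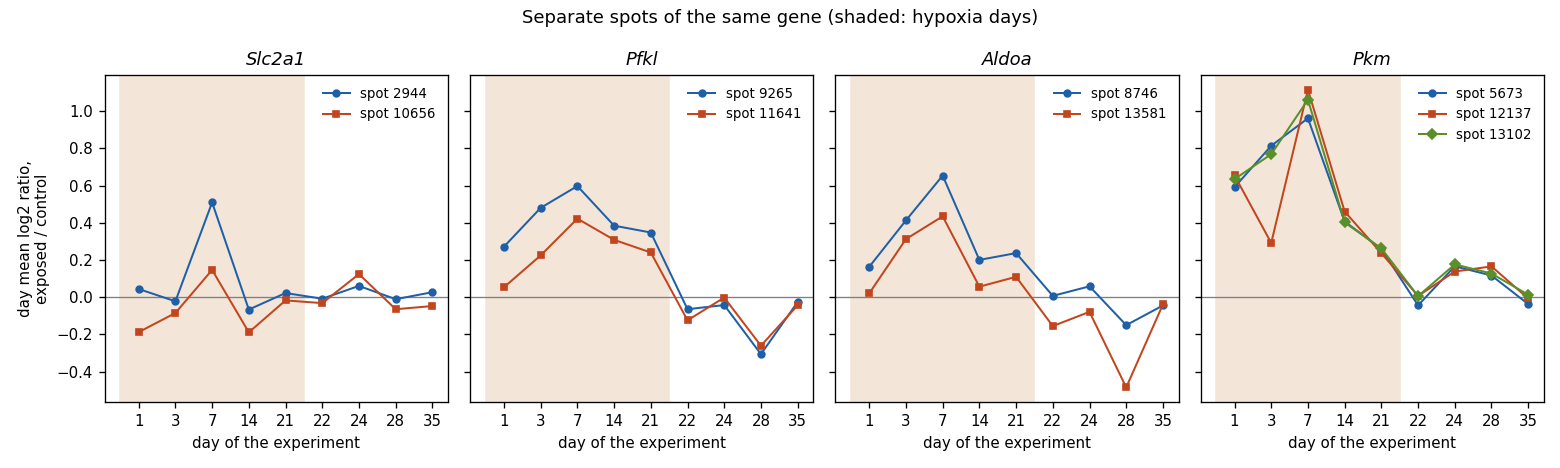
Day mean log2 ratio of exposed over control lung (vertical axis) by day (horizontal axis, not to scale) for each spot of the 4 genes with several spots. The 3 Pkm spots lie at 0.96, 1.12 and 1.06 at day 7, and the Slc2a1 spots at 0.51 and 0.15.

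Spots of the same gene gave a check on the ratios of 4 genes. Slc2a3, Hk1, Pfkfb3, Aldoc, Pgk1 and Ldha had 1 spot each and so no such check. The 3 spots of Pkm averaged 0.61, 0.55 and 0.63 over hypoxia, and each passed when fitted on its own (limma adjusted p between 0.00036 and 0.0014). They were furthest apart at day 3, where spot 12137 read 0.29 and the other 2 read 0.81 and 0.77. The 0.29 rests on 1 array, replicate 2 at -0.75, beside 0.86, 0.57 and 0.48 in replicates 1, 3 and 4. The 2 spots of Pfkl averaged 0.42 and 0.25, and both passed. Those of Aldoa averaged 0.33, which passed (limma adjusted p = 0.0021), and 0.19, which did not (limma adjusted p = 0.056). The 2 spots of Slc2a1 had opposite signs over hypoxia, 0.10 and -0.07. At day 7, spot 2944 read 0.51 (limma adjusted p = 0.00058) and spot 10656 read 0.15 (limma adjusted p = 0.16), so the Slc2a1 call of that day rests on 1 spot.

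**Figure D5:**
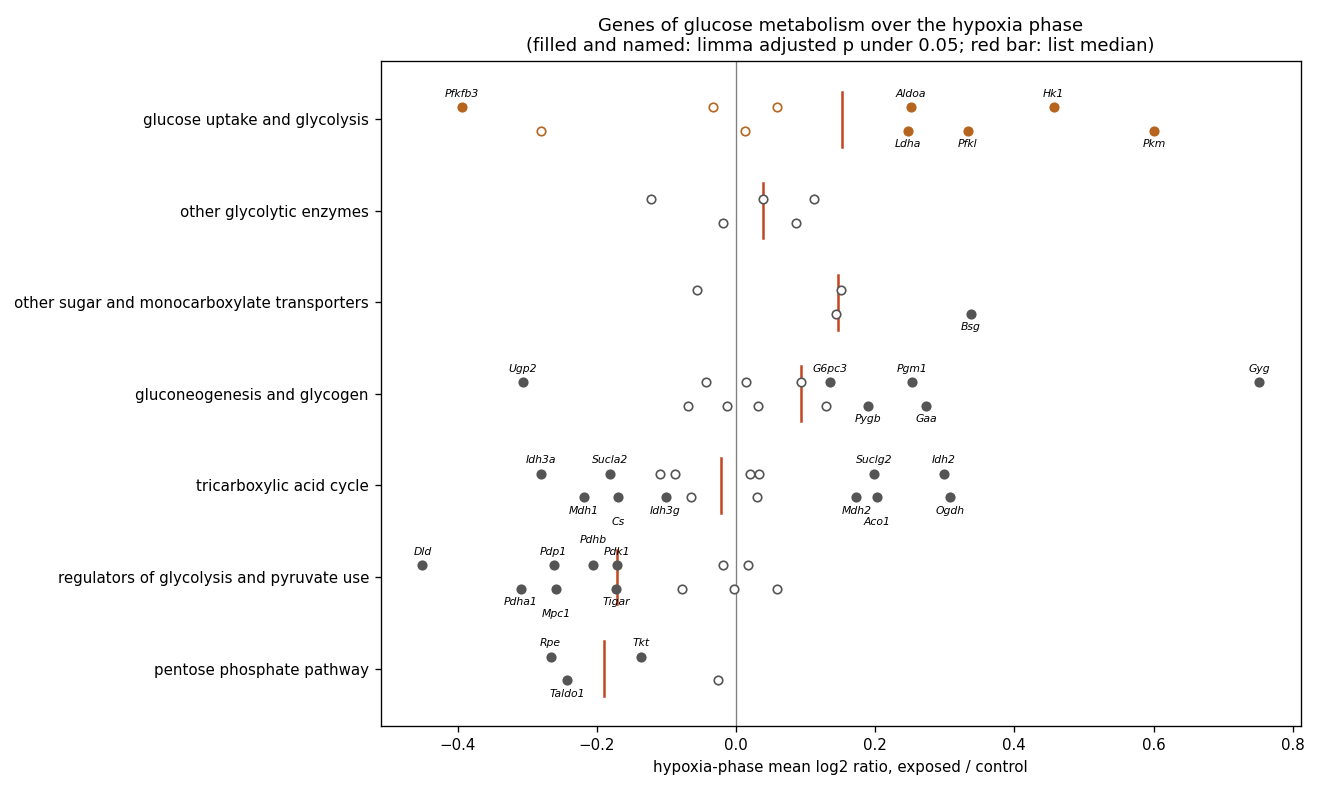
Hypoxia-phase mean log2 ratio of exposed over control lung (horizontal axis) of the glucose uptake and glycolysis genes and of 6 other lists of glucose metabolism, with 1 point per gene, filled and named where limma's adjusted p was under 0.05, and a red bar at each list's median. The list medians run from -0.19 for the pentose phosphate pathway to 0.15 for the glucose uptake and glycolysis genes.

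The other genes of glucose metabolism on the arrays were counted in the same fit, beside the same 42.4% of features. Of the other glycolytic enzymes, 5 of 22 were tested and none passed: Tpi1 (0.11), Bpgm (0.09), Gapdh (0.04), Pgam1 (-0.02) and Ldhb (-0.12), the lactate dehydrogenase subunit of heart. At an unadjusted p under 0.05, 0 of the 5 stood out. In replicates 1 and 2 alone 2 of the 5 were higher, beside 2606 features higher and 2166 lower. In replicates 3 and 4 alone 2 were lower, beside 3541 features higher and 2745 lower. The list median was 0.04 over hypoxia and -0.06 over recovery, against 0.15 and -0.11 for the 10 genes described above. At day 7, 2 of the 5 were higher and none was lower, against 20.4% of features higher and 15.5% lower.

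Of 12 tested regulators of glycolysis and of pyruvate use, 7 were lower and none was higher over hypoxia, with a median of -0.17. The other 5 (Dlat, Pdhx, Pdk3, Pdp2 and Pfkfb2) lay between -0.08 and 0.06. Dld, a subunit shared by the pyruvate and 2-oxoglutarate dehydrogenase complexes, was at -0.45 ± 0.16 (SD over days, n = 5; limma adjusted p = 0.00031). Pdha1, the catalytic subunit of pyruvate dehydrogenase, averaged -0.31, but its spots read -0.70 and 0.08. The phosphatase subunit Pdp1 (-0.26) lost its call in replicates 1 and 2 alone (adjusted p = 0.22), and Mpc1, part of the mitochondrial pyruvate carrier, was at -0.26. Over recovery Pdha1 was lower in the mean of its spots (-0.30, limma adjusted p = 0.032), with spot means of -0.60 and 0.03.

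The neighbouring routes of glucose were mixed. Bsg, the chaperone of the lactate transporters, was the 1 gene of 4 tested transporters that passed, at 0.34 (limma adjusted p = 0.0035), though not in replicates 3 and 4 alone (0.16, adjusted p = 0.085). In the pentose phosphate pathway 3 of 4 were lower, Rpe (-0.27), Taldo1 (-0.24) and Tkt (-0.14). The 6 Tkt spots ran from -0.52 to 0.04, and Tkt and Taldo1 did not pass in replicates 1 and 2 alone (adjusted p = 0.25 for Tkt and 0.052 for Taldo1). Of 13 genes of gluconeogenesis and glycogen, 5 were higher and 1 lower. Gyg, the glycogen primer, was at 0.75 ± 0.22 (SD, n = 5; limma adjusted p = 0.00016), followed by Gaa (0.27), Pgm1 (0.25) and Pygb (0.19), and Ugp2 was lower (-0.31). The 2 Pygb spots read 0.27 and 0.06. Pgm1 (0.05) and Pygb (0.08) did not pass in replicates 3 and 4 alone (adjusted p = 0.49 for Pgm1 and 0.26 for Pygb).

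In the tricarboxylic acid cycle 5 of 16 genes were higher and 5 lower, with a median of -0.02. Ogdh (0.31), Idh2 (0.30), Aco1 (0.20) and Suclg2 (0.20) led the higher ones and Idh3a (-0.28), Mdh1 (-0.22), Sucla2 (-0.18) and Cs (-0.17) the lower ones. With every spot of a gene required to pass, 4 were higher and 1 lower, and spots of 2 of the lower genes had opposite signs: Cs read 0.13 and -0.47, and Idh3a read -0.60, 0.13 and -0.38. Replicates 1 and 2 alone gave 5 higher and 1 lower, beside 2606 and 2166 of all features. Replicates 3 and 4 alone gave 2 higher and 6 lower, beside 3541 and 2745 of all features. In replicates 3 and 4 alone Idh2 (adjusted p = 0.054) and Aco1 (adjusted p = 0.13) did not pass, and in replicates 1 and 2 alone Mdh1 (adjusted p = 0.37), Sucla2 (adjusted p = 0.32) and Cs (adjusted p = 0.44) did not. Suclg2 was also higher over recovery (0.24, limma adjusted p = 0.041). Of 14 hypoxia-response genes tested, 3 were higher and 4 lower, against 24.7% and 17.7% of all features. Pdk1, in this list, was also counted among the regulators above. Vhl, which marks the hypoxia-inducible factors for breakdown, was at 0.29, the carbonic anhydrase Car9 at 0.24 and P4ha2 at 0.20. Tfrc, the transferrin receptor (-0.40), Bnip3l (-0.32), Arnt (-0.20) and Pdk1 (-0.17), the kinase that switches off pyruvate dehydrogenase, were lower. In replicates 1 and 2 alone Car9 (adjusted p = 0.11) and P4ha2 (adjusted p = 0.072) did not pass, nor did Arnt (adjusted p = 0.095) or Pdk1 (adjusted p = 0.59) in replicates 3 and 4 alone, and Tfrc was lower over recovery too (-0.25, limma adjusted p = 0.041).

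Markers of several cell types were counted in the same fit, in which 24.7% of all features were higher over hypoxia and 17.7% lower. Mature red blood cells, which have no mitochondria, depend on glycolysis for ATP. Of 16 erythroid markers 5 were tested and 4 were higher, Hbb-b1 (0.99), Hba-x (0.91), Hbb-y (0.67) and Alas2 (0.63), with a list range of 0.04 to 0.99. The median of the erythroid list by day was 0.98, 0.65, 1.05, 0.59 and 0.36 over hypoxia and 1.13, 0.14, -0.46 and 1.29 over recovery. Of 15 smooth muscle markers 8 were tested and 7 were higher, led by Myl6 (0.45), Flna (0.42), Cald1 (0.38) and Cnn2 (0.33), with a range of 0.10 to 0.45. Myl6 did not pass in replicates 3 and 4 alone (adjusted p = 0.066). The 2 Flna spots read 0.67 and 0.16. Cnn1 was the lowest at 0.10, with -0.01 in replicates 3 and 4 alone. Acta2, Tagln and Myh11 were not among the markers tested. The smooth muscle median by day was 0.31, 0.41, 0.47, 0.26 and 0.13 over hypoxia and -0.03, -0.03, -0.13 and 0.09 over recovery. The part of these cells in the glycolysis ratios was not tested.

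The remaining marker lists are short, and their hypoxia counts stand beside 24.7% of all features higher and 17.7% lower. Of 11 macrophage and monocyte markers 4 were tested and 3 were lower over hypoxia, Cybb (-0.62), Fcgr3 (-0.33) and Fcgr1 (-0.27). Fcgr1 did not pass in replicates 3 and 4 alone (adjusted p = 0.60). Among neutrophil markers 1 of 4 was higher (Ltf, 0.68) and 1 lower (S100a9, -1.51 ± 1.45, SD over days, n = 5). Endothelial markers had 3 of 5 higher (Emcn 0.66, Gja4 0.48 and Cdh5 0.27) and 2 lower (Cd93 -1.29 and Ednrb -0.66), and Gja4 did not pass in replicates 3 and 4 alone (adjusted p = 0.065). Lung epithelial markers had 3 of 7 higher (Muc1 0.37, Lpcat1 0.29 and Epcam 0.16) and 2 lower (Slc34a2 -0.60 and Cdh1 -0.18), of which Lpcat1 (adjusted p = 0.18) and Epcam (adjusted p = 0.33) did not pass in replicates 3 and 4 alone, nor Cdh1 (adjusted p = 0.34) in replicates 1 and 2 alone. The 3 spots of Slc34a2 read 0.10, -1.60 and -0.31, and with every spot required to pass 0 epithelial markers were lower. Of 2 lymphocyte markers tested none passed, and 1 did at an unadjusted p under 0.05. The 1 cardiac or skeletal muscle gene tested, Tnnt1, was higher at 0.13, and at -0.05 in replicates 3 and 4 alone (adjusted p = 0.61). Over recovery Cybb (-0.33) and Cnn1 (-0.32) were lower and Emcn (0.55) higher.

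The genes whose course over the 9 days was most like that of Pkm and of Pfkfb3 were sought by the mean absolute difference of the day means among 6568 named genes. Nearest to Pkm were Tubb2b (0.12) and Tubb3 (0.12), which encode beta-tubulins, and Tssc4 (0.13), where the median gene differed from Pkm by 0.38. Nearest to Pfkfb3 were Cltc (0.06), the clathrin heavy chain, Kpna1 (0.07), an importin alpha, and Sfpq (0.08), a splicing factor, where the median gene differed by 0.39. These are descriptions of likeness over 9 days, with no test.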

How the data were processed

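Per the labels' protocols, the authors scanned the slides on a GenePix 4000A scanner, corrected for background, removed flagged spots and deposited lowess-normalised log2 ratios of median intensities. These were used as they stand. The platform annotation gave gene names: 9598 of 15388 spots had 1 symbol, 514 several and 5276 none. Entrez identifiers of 9510 named spots matched RefSeq on GRCm38.p6, leaving all symbols as they were. On every array the spots of a gene were averaged, and all other spots were kept as unnamed features (12761 in all). No label records a dye swap. A constant dye or spot offset of a gene therefore cannot be told apart from a difference from control.

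R 4.3.3 with limma 3.58.1 was used for all tests (lmFit, eBayes), with Benjamini-Hochberg adjustment over all features and a threshold of 0.05. The labels describe a pool per condition and day and do not say whether the arrays of a day share it, so phases were fitted on 9 day means (at least 2 arrays at each day). Single days and day 22 minus day 21 were fitted on 36 arrays (at least 3 of 4). Fits were tested on simulated data. The alternatives were centring, scaling, spot averaging, limits on missing values, parts of the arrays or days, the replicate number as a block and the pairs as units or as a random block.

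The 10 genes and all lists were chosen with earlier results of these data known. All 10 are named, with up to 4 genes of each list that passed in each direction, and the 3 genes nearest in course to the highest and the lowest of the 10 over hypoxia. Genes named in a count of 5 or fewer beyond these, and all 5 other glycolytic enzymes, were added after their values were seen.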

Additional observations from a re-analysis of the deposited data

Results flagged for a closer look

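Of 87 sets of 4 arrays of a gene and day, 3 had an array far from the other 3, where chance gives about 1 in 20. Slc2a1 read 0.230 in replicate 1 of day 21, with the other arrays between -0.048 and -0.031. That value rests on spot 10656 alone, while the other arrays of the day averaged 2 spots. In replicate 4 those spots read 0.218 and -0.281. Slc2a1 also read 0.174 in replicate 1 of day 22, with the other arrays between -0.102 and -0.074. Pfkfb3 read -0.651 in replicate 4 of day 7, with the other arrays between -0.827 and -0.802.

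Pfkl and Aldoa had all 5 hypoxia day means above 0 and all 4 recovery day means below 0. The difference of the phases was 0.442 for Pfkl (limma adjusted p = 0.095) and 0.363 for Aldoa (limma adjusted p = 0.13), and neither passed the threshold.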

How the results depend on the processing

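Over the hypoxia phase the count of the 10 genes that passed (6) lay between 4 and 7 under every alternative, with 4 where a value was needed on all 36 arrays and Hk1, Pfkfb3 and Pgk1 were not tested. Among genes that passed, means that changed sign were Ldha in replicates 3 and 4 alone (-0.00627), Mdh2 in replicates 3 and 4 alone (-0.0436), Tnnt1 in replicates 3 and 4 alone (-0.0521) and Idh3g in replicates 1 and 2 alone (0.0465), none of them past the threshold there. Another 8 sign changes over hypoxia were of values of the 10 genes that passed in neither setting. Over recovery, 580 features and 1 of the 10 genes passed. With array spreads made equal there were 3182 (1642 higher and 1540 lower, against 201 and 379) and 3 of the genes, each spot alone 897, replicates 1 and 2 alone 1103, replicates 3 and 4 alone 1609, and arrays as the unit with a mean per day 4069 and 5. Setting array medians to 0, using features with a value on all arrays, or setting no limit beyond 1 array a day gave 0 of the genes. Leaving out a day or a replicate number gave 0 to 725 features and 0 to 2 of the genes: 0 features without day 24, 2 without day 28, 12 without day 22, 13 without day 3, 338 without day 1, 376 without day 14 and 386 without replicate 4. Between the phases 4 features and 0 of the genes passed, against 10 and 1 with scaling, 34 and 1 in replicates 1 and 2, 2 features in replicates 3 and 4, 8 where all arrays had a value, and 2045 and 5 with arrays as the unit. Leaving out a day or number gave 1 to 124 features, the highest without day 21, and up to 2 genes.

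Between days 22 and 21, 74 features and 1 gene passed, against 130 and 2 with scaling (Slc2a3 and Pfkl), 24 and 0 in replicates 1 and 2, 4 and 0 with pair means and 25 and 0 with the pairs as a random block (consensus correlation 0.42), and 27 to 48 features and 0 to 1 genes without a replicate number. Of the 31 calls at single days, 20 held in number where all arrays had a value. With pair means 12 held, and with the random block 20. The replicate block gave 40 (22 higher and 18 lower). At day 7 the share of all features was 44.3%, 18.8%, 24.1% and 43% in these fits, against 35.8% in the main fit. The causes of these changes were not tested. Arrays of the same replicate number tended to share their deviation across days. Deviations from the day means had a median r of 0.38 between same-number arrays of other days, with a lowest of -0.12. Between different numbers the median r was -0.25. The deviations of a day add up to 0, so r above 0 within a number pulls r between numbers below 0. What the numbers stand for is not in the labels. With the replicate block, 4324 features and 6 of the genes passed over recovery, 1785 and 5 between the phases and 139 features between days 22 and 21. Signal over background was not used here, so the dim spots cannot be told apart.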
